A study of Mus musculus with 20 samples.

Results

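The Oct4 list of untreated F9 cells held 64582 peaks, of which the strongest by score were examined, as many as the Sox17 list of F9 cells treated with retinoic acid (RA) holds. Of these, 6541 overlapped no peak in the Oct4 list of RA-treated F9 cells and are called lost sites here. They were chosen by the Oct4 signal itself: by their rank in the F9 list and by the lack of an interval sharing at least 1 bp in the whole F9+RA list. The other 33227 examined peaks are called kept. The share without a partner, 16.4% of the peaks examined, is set by the rule and is not a finding. A lost site is a region without a peak call after RA, which is not the same as a region without Oct4.

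F9 is a mouse embryonal carcinoma line. It was used undifferentiated, or after 1 µM RA had turned it into primitive endoderm-like cells, with 1 library each for Oct4 (Pou5f1) before RA, Oct4 after RA and Sox17 after RA. KH2 embryonic stem (ES) cells, undifferentiated, received doxycycline at 1 µg/ml to overexpress a V5-tagged Sox2, Sox2KE, Sox17EK or Sox17. Each of these 4 ES lines gave 2 Sox libraries (replicates A and B) and 2 Oct4 libraries, except the Sox17 line with 1 Oct4 library. The V5 antibody is named for the Sox2, Sox2KE and Sox17EK libraries, Sox17 and V5 for the Sox17 libraries, and Oct4 and V5 for the Oct4 libraries of ES cells, while F9 libraries name 1 antibody each (Oct4 or Sox17). Peaks of the tagged Sox protein in the Oct4 lists of ES cells therefore cannot be told apart from peaks of Oct4. All Sox proteins of the ES lines were expressed from an inducible transgene beside the cells' own Sox2.

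Oct4 is a POU-domain factor that holds pluripotent cells in their state and often binds DNA next to an HMG-box partner. With Sox2 it recognises a composite Sox-Oct element at many enhancers of pluripotent cells, and with Sox17, a regulator of primitive endoderm, it can occupy a compressed form of that element with closer half-sites. A residue that is lysine in Sox2 and glutamate in Sox17 lies at the contact with Oct4. Sox2KE carries the glutamate and Sox17EK the lysine, so Sox2 and Sox17EK are called lysine proteins below, and Sox2KE and Sox17 glutamate proteins.

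The 18 peak lists held from 5836 (Sox17 ES replicate B) to 84196 peaks (Oct4 F9+RA), so the list in which partners were looked for was longer than the F9 list. Read depth was unknown, and a longer list meets more sites of any kind. Shares of lost sites are therefore compared with the share of kept peaks weighted to the ranks of the lost sites, called rank-weighted. For single lists, the share of the lost sites moved by 10 kb to either side is a second reference.

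Lost sites were mostly weaker peaks of untreated F9 cells. Their median rank was 30581 (rank 1 being the strongest), against 17321 for kept peaks, and their score, the authors' value per peak, had a median of 127 against 234 for kept peaks. Scores of lost sites ran from 91.8 to 1009, with quartiles of 105 and 169. None of the 1989 strongest F9 peaks was lost, and the first lost site stood at rank 2117. Across 20 bins of rank the lost share climbed to 41.1% of the last 1988 peaks (exact 95% interval 38.9 to 43.3). At the lower limit of rank, the weakest member scored 91.8 and the first peak outside the limit without an F9+RA partner scored 91.78. Among the 24814 F9 peaks beyond the limit, 56.3% had no partner.

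Widths were smaller at lost than at kept sites of like rank. The median interval of lost sites was 673 bp, with quartiles of 551 and 861 bp, against a rank-weighted median of 755 bp for kept peaks. In 18 of the 19 rank bins that held lost sites, their median width was the smaller, the exception being the second bin with 14 lost sites (1268 against 1235 bp). A wider interval is more likely to overlap a partner, so width is not independent of the rule. It is also more likely to overlap a peak of any other list. The rank-weighted shares below are matched for rank and not for width, and the part of width in them was not tested.

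**Figure D1:**
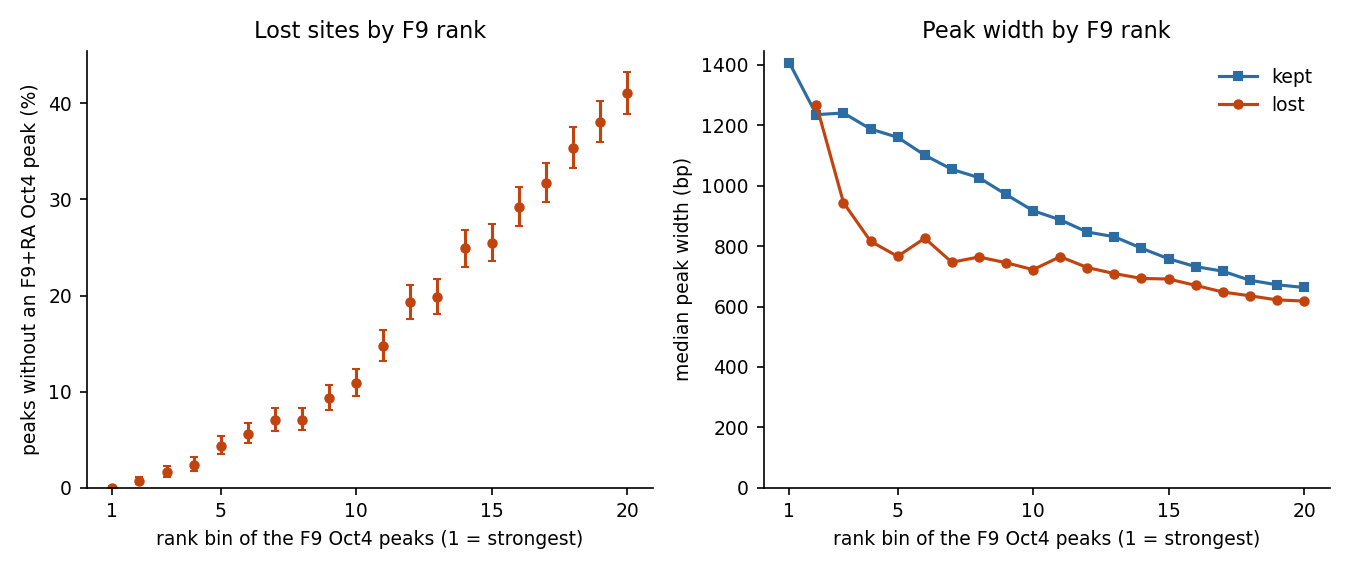
The left panel plots the percentage of F9 Oct4 peaks without an F9+RA Oct4 peak (points, with exact 95% intervals) against the rank bin, and the right panel the median width in bp of lost and kept peaks in each bin. The lost share goes from 0 in the first bin to 41.1% in the last, and lost sites are the narrower in 18 of 19 bins.

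Many lost sites lay close to an Oct4 peak of RA-treated cells, which may be one present before RA or not. The gap to the nearest F9+RA Oct4 interval had a median of 3461 bp, with quartiles of 904 and 11455 bp. It was at most 200 bp at 447 sites, between 200 and 1000 bp at 1298, and over 20000 bp at 1027. Near the limit of the overlap rule, 90 lost sites had an F9+RA interval within 50 bp, while 43 kept peaks shared 50 bp or less with one. Sites more than 20000 bp from an F9+RA peak were the narrowest class (median 585 bp against 716 bp within 200 bp) and had a median score of 133 against 123.

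The 10 strongest lost sites all had an Oct4 peak in at least 1 ES library, and none had a Sox17 peak in F9+RA cells. Among all 183 lost sites ranked 1 to 10000, an average Oct4 library of lysine lines met 78.3%. A peak in at least 1 of the 7 ES libraries was thus at least that common. Sox17 lay at 2.19% of the 183. Neither count therefore sets the 10 apart. The strongest lay on chromosome 8 at 114312829 to 114314179 (build mm9), with an F9 score of 1009, and an F9+RA Oct4 peak lay 66 bp away. Oct4 peaks lay there in all 7 ES libraries: the scores were 3100 and 906 with Sox2, 3100 and 2590 with Sox17EK, 257 and 160 with Sox2KE (replicates A and B), and 1036 with Sox17. Its lowest Oct4 scores were those of the Sox2KE line. Its Sox peaks scored 623 and 398 for Sox2, 1366 and 345 for Sox17EK, 164 in Sox2KE replicate B and 50.9 in Sox17 replicate A, with no peak in the other replicate of either glutamate protein.

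The region of chromosome 5 from 108947312 to 108948666 scored 881 in F9 cells and lay 56568 bp from the nearest F9+RA Oct4 peak. Its Oct4 scores were 2655 and 565 for the Sox2 line, 3100 and 919 for Sox17EK, 255 for Sox17 and 137 and 124 for Sox2KE. Sox2 scored 585 and 853 there and Sox17EK 1338 and 411, against 167 and 89.2 for Sox2KE and no peak of Sox17. Every library of a lysine protein or line scored above every one of a glutamate protein or line at this site, among the Oct4 and among the Sox libraries.

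Some other sites among the 10 strongest did not divide this way in their Sox peaks. The third strongest (chromosome 5, 117570972 to 117572245, 949 in F9 cells) had Sox2KE scores of 58.0 and 107, Sox2 scores of 56.0 and 59.4, and no peak of Sox17EK or Sox17. Its only Oct4 peaks in ES cells were in replicate A of the Sox2 line (157) and of the Sox17EK line (54.5). At 33994854 to 33996315 of chromosome 4 (797 in F9 cells), Sox2KE scored 123 and 147, Sox2 146 and 89.8, and Sox17EK 169 and 109, so lysine and glutamate proteins overlapped. Oct4 there scored 768 in replicate A of the Sox2 line and 762 and 355 with Sox17EK. It scored 72.5 in Sox2KE replicate A and 85.2 with Sox17, with no peak in replicate B of the Sox2 or Sox2KE line.

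A narrower site, 23549197 to 23549795 of chromosome 4, scored 768 in F9 cells and lay 8632 bp from an F9+RA Oct4 peak. Oct4 there scored 2977 and 416 with Sox2, 1313 and 486 with Sox17EK, 374 with Sox17 and 147 and 120 with Sox2KE. Sox2 had scores of 263 and 183, Sox17EK 270 and 124, and Sox2KE replicate B 64.7, with none in Sox2KE replicate A or in either Sox17 library. The second strongest, with a score of 1005 in F9 cells (chromosome 13, 107645946 to 107647206), lay 79027 bp from any F9+RA Oct4 peak. It had Oct4 peaks in the lysine lines (583 and 118 for Sox2, 533 and 240 for Sox17EK) and in the Sox17 line (79.0), and none in the Sox2KE line. Scores of different lists are on scales that depth may shift, and 3100 recurs as the top value at several sites, so these values describe each list and carry no test.

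Other strong lost sites had little support in ES cells. The lost site from 121408046 to 121409279 of chromosome 4, which scored 883 in F9 cells, had an ES peak only in Oct4 replicate A of the Sox2 line (93.2). The strongest site with no peak in any of the other 16 lists lay on chromosome 15 at 74779667 to 74780702, with an F9 score of 654 and 4990 bp from an F9+RA Oct4 peak. The next, on chromosome X at 95614767 to 95615426, scored 574 and was 101526 bp from such a peak. In all, 1423 lost sites (21.8%, exact 95% interval 20.8 to 22.8) had a peak in no other list, against 11.7% of kept peaks, rank-weighted. Their median F9 score was 115 and their median width 644 bp.

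Sox17 of RA-treated F9 cells lay at a smaller share of lost sites than of kept peaks. A Sox17 F9+RA peak overlapped 399 of the 6541 sites, or 6.10% (exact 95% interval 5.53 to 6.71), while 31.9% of all examined peaks had one. The share of kept peaks was 28.2%, rank-weighted, and that of the lost sites moved by 10 kb was 5.14%. Lost sites thus met Sox17 1.19 times as often as the moved sites, and kept peaks 4.27 times as often as theirs. The Sox17 list comes from the same treated cells as the list that chose the members, and it is 1 library, so no test was made between conditions. Intervals over sites cover counting error only. The size of the gap rests on the overlap rule: where lost meant no F9+RA Oct4 midpoint within 200 bp, Sox17 lay at 26.8% of lost sites and 31.7% of kept peaks, rank-weighted.

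The low Sox17 share held at every level of F9 signal. Lost sites had the smaller share in all 19 rank bins that held them. Among peaks ranked 1 to 10000, Sox17 lay at 4 of 183 lost sites (2.19%, exact 95% interval 0.60 to 5.50) and at 45.7% of kept peaks. In the weakest of 4 rank strata it lay at 213 of 3447 lost sites (6.18%) and at 23.1% of kept peaks.

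The Sox17 share varied with the distance to the nearest F9+RA Oct4 peak. Sox17 lay at 11.6% of lost sites within 200 bp of an F9+RA Oct4 peak (exact 95% interval 8.81 to 15.0), and at 3.51% of those more than 20000 bp away (2.47 to 4.82). Moved by 10 kb, the same classes of sites had 9.73% and 0.49%. In the 4 classes up to 20000 bp the share of the moved sites lay inside the interval of the lost sites, and in the farthest class it lay below. Moved by 10 kb, sites of the farthest class still cannot reach an F9+RA Oct4 peak, while those of nearer classes can. The moved shares are therefore not a like reference across the classes, and no conclusion is drawn from this contrast.

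**Figure D2:**
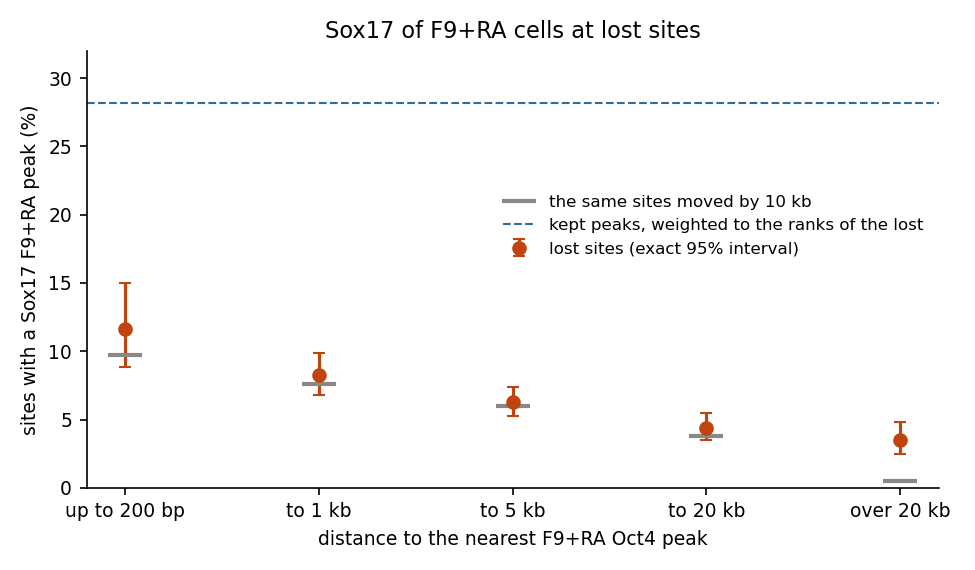
Points give the percentage of lost sites with a Sox17 F9+RA peak, with exact 95% intervals, by distance to the nearest F9+RA Oct4 peak. Grey dashes give the same sites moved by 10 kb, and the dashed line the rank-weighted share of kept peaks (28.2%). The share goes from 11.6% nearest to 3.51% farthest, and all 5 classes stay below the line.

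Where Sox17 did overlap a lost site, its peak was in the median weaker than at kept peaks and a little below the median of its list. The median Sox17 score was 63.9, against 80.6 at kept peaks, rank-weighted, and 67.8 over the whole Sox17 list. Its median place in that list was 57.1% from the top, against 35.3% at kept peaks. The strongest lost site with Sox17, which spans 99312496 to 99313467 of chromosome 14, scored 407 for Oct4 in F9 cells and 57.4 for Sox17. A second (chromosome 12, 88745965 to 88747123, 394 in F9 cells) had a Sox17 score of 147 and no peak in any ES list. Another, on chromosome 13 at 19722580 to 19723392 (F9 score 391), had a Sox17 score of 150 in F9+RA cells and of 174 and 65.4 in the Sox17 libraries of ES cells. Only 33 lost sites (0.50%) had Sox17 both in F9+RA cells and in an ES library, against 7.43% of kept peaks, rank-weighted.

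In ES cells, which were not used to choose the sites, most lost sites had a peak in at least 1 Oct4 list. An Oct4 peak of at least 1 of the 7 ES libraries lay at 4809 lost sites (73.5%, exact 95% interval 72.4 to 74.6), against 83.6% of kept peaks, rank-weighted. Single Oct4 libraries met from 15.1% (Sox2KE line, replicate B) to 63.0% (Sox17EK line, replicate A) of lost sites, with a median of 25.6%. For the 7 lists as a set no share of moved sites is given. Few lost sites were held throughout: 338 (5.17%) had an Oct4 peak in all 7 libraries, against 21.0% of kept peaks. A Sox peak of at least 1 of the 8 ES Sox libraries lay at 3517 lost sites (53.8%), against 70.8% of kept peaks, rank-weighted. Both an Oct4 and a Sox peak of ES cells were found at 3295 lost sites (50.4%), against 68.5% of kept peaks. Sites with Oct4 in more ES libraries were the stronger ones in F9 cells, with a median F9 score of 114 where no ES library had Oct4 and 152 where all 7 did.

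**Figure D3:**
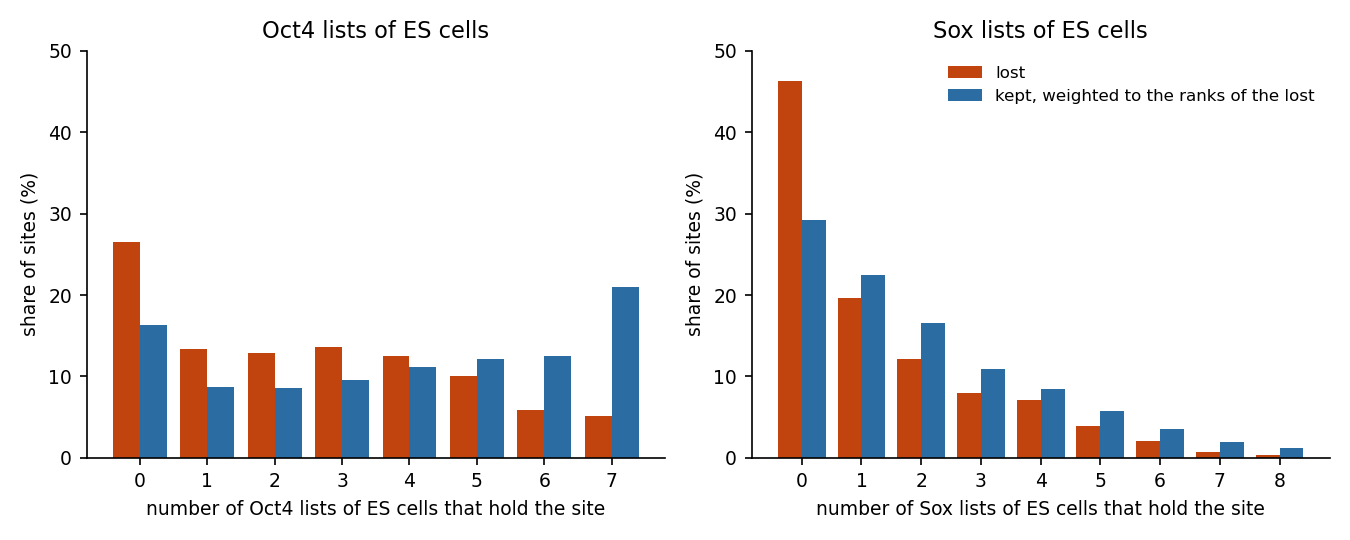
Bars give the percentage of lost sites, and of kept peaks weighted to their ranks, by the number of Oct4 lists (left, of 7) or Sox lists (right, of 8) of ES cells that hold the site. Lost sites exceed kept peaks at 0 Oct4 lists (26.5% against 16.4%) and fall below them at 7 (5.17% against 21.0%).

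Of the 7 Oct4 libraries of ES cells, 3 of the lysine lines met the most lost sites, and the fourth met fewer than 2 of the 3 glutamate libraries. In the Sox17EK line Oct4 lay at 4121 (63.0%) in replicate A and 2805 (42.9%) in replicate B, where 82.5% and 67.1% of all examined F9 peaks had one. In the Sox2 line it lay at 3687 (56.4%) and 1569 (24.0%), against 76.9% and 52.4% of all F9 peaks. The rank-weighted shares of kept peaks were 75.6% and 55.3% for Sox17EK and 67.2% and 38.6% for Sox2. These lists differ in length, from 32877 to 68294 peaks, and the shares follow it.

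Among the glutamate lines, Oct4 of the Sox2KE line lay at 1642 lost sites (25.1%) in replicate A and 986 (15.1%) in replicate B, where 61.0% and 50% of all F9 peaks had one. In the Sox17 line it lay at 1676 (25.6%), against 58.2% of all F9 peaks. Kept peaks had rank-weighted shares of 55.8% and 42.9% for Sox2KE and 46.6% for Sox17. The Sox2KE replicate A and Sox17 libraries each met more lost sites than Sox2 replicate B, so the shares of lost sites alone overlapped between the residues. At the moved sites the 7 shares ran from 5.14% to 12.4%, and each lost share lay above that of its own list.

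Dividing the share of lost sites by the rank-weighted share of kept peaks in the same list gives a relative share, in which list length acts on both parts. For Oct4 it was 0.839 and 0.621 with Sox2, 0.833 and 0.776 with Sox17EK, 0.450 and 0.351 with Sox2KE and 0.550 with Sox17. The lysine lines averaged 0.767 ± 0.101 (SD, n = 4) and the glutamate lines 0.450 ± 0.0996 (SD, n = 3), and the sets did not overlap. The difference of 0.317 did not pass the threshold of 0.05 by an exact two-sided permutation test over libraries (p = 0.0571, Benjamini-Hochberg adjusted p = 0.0857 over 3 tests). The smallest p that 4 against 3 libraries could give was 0.0286. That p was reached with the 20000 strongest F9 peaks (difference 0.342, exact permutation) and with sites that had no F9+RA Oct4 peak within 1000 bp (0.337), while matching by midpoints gave 0.107 and equal list lengths 0.662 (exact permutation p = 0.0571 each).

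The Sox proteins themselves divided the same way in relative share. Sox2 lay at 1544 lost sites (23.6%) in replicate A and 1274 (19.5%) in replicate B, where 34.1% and 30.7% of all F9 peaks had a peak. Sox17EK lay at 1582 (24.2%) and 969 (14.8%), against 40.1% and 27.8%. Kept peaks had rank-weighted shares of 23.4% and 20.7% for Sox2 and 27.8% and 18.3% for Sox17EK, and the moved sites shares of 3.63% to 4.30%. Both Sox2 replicates had relative shares near 1 (1.01 and 0.940), which means that Sox2 of ES cells met lost sites about as often as kept peaks of like rank. Those of Sox17EK were 0.869 and 0.808.

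Sox2KE lay at 1003 lost sites (15.3%) in replicate A and 2058 (31.5%) in replicate B, where 33.5% and 60.5% of all F9 peaks had a peak. Sox17 lay at 272 (4.16%) and 153 (2.34%), against 19.6% and 9.81%. Kept peaks had rank-weighted shares of 27.4% and 57.5% for Sox2KE and 13.4% and 6.17% for Sox17, and the moved sites 4.57% and 11.3%, and 2.51% and 1.24%. Their relative shares were 0.560 and 0.547 for Sox2KE and 0.309 and 0.379 for Sox17, below all 4 of the lysine proteins. The lysine libraries averaged 0.906 ± 0.0875 and the glutamate libraries 0.449 ± 0.124 (SD, n = 4 each), a difference of 0.458. An exact two-sided permutation test over libraries gave p = 0.0286, the lowest possible with 4 libraries on each side. Adjusted over the 3 tests, the exact permutation p rose to 0.0857, so the result fails the correction. Where lost meant no F9+RA midpoint within 200 bp, the difference shrank to 0.0559, and with kept peaks unweighted to 0.253 (exact permutation p = 0.0286 each).

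**Figure D4:**
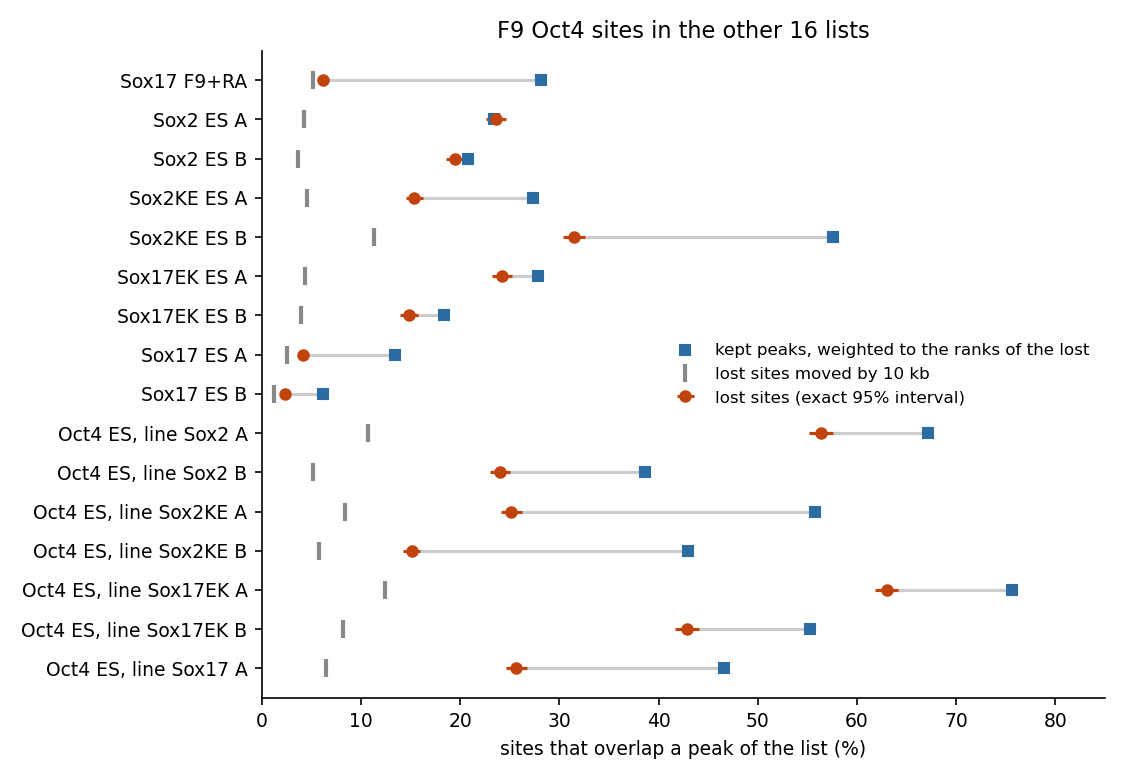
Circles give the percentage of lost sites that overlap a peak of each of the 16 other lists (with exact 95% intervals), squares that of kept peaks weighted to the ranks of the lost sites, and grey ticks that of lost sites moved by 10 kb. Circle and square nearly coincide for both Sox2 libraries and lie over 20 points apart for Sox17 F9+RA (6.10% and 28.2%), Sox2KE replicate B (31.5% and 57.5%) and all 3 Oct4 libraries of glutamate lines.

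**Figure D5:**
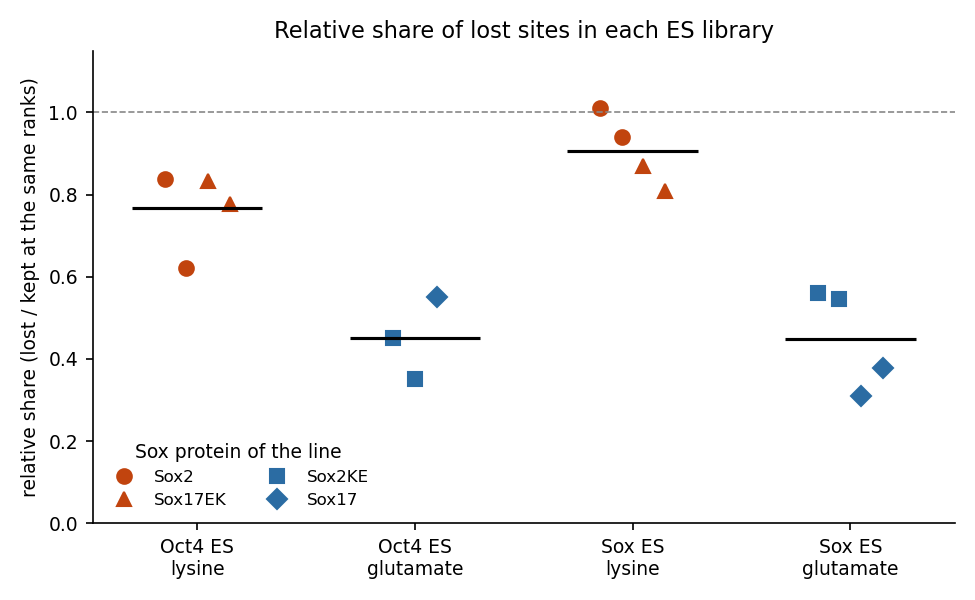
Each symbol is 1 ES library, coloured by the residue of the Sox protein of its line (rust red lysine, blue glutamate), and plots the share of lost sites divided by the rank-weighted share of kept peaks. Horizontal bars are group means, at 0.767 and 0.450 for Oct4 and 0.906 and 0.449 for Sox, and lysine and glutamate symbols do not overlap in either.

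Without reference to kept peaks the order was similar but less complete. With each ES list cut to its 5836 strongest peaks, the lysine Sox lists met 4.22% to 5.18% of the lost sites and the glutamate Sox lists 2.31% to 3.09% (exact permutation p = 0.0286). The Oct4 lists cut in the same way met 2.71% to 6.67% in lysine lines and 1.01% to 1.87% in glutamate lines (exact permutation p = 0.0571). Per 1000 peaks of the whole list, 47.7 to 60.3 lost sites were met by Oct4 of lysine lines and 30.02 to 46.9 by Oct4 of glutamate lines (exact permutation p = 0.0286). For the Sox lists the sets overlapped, at 26.4 to 55.3 and 26.2 to 30.3 (exact permutation p = 0.114), with Sox17EK replicate B below 3 of the 4 glutamate libraries. These 4 tests were added after the shares had been seen, and their Benjamini-Hochberg adjusted p ran from 0.0571 to 0.114.

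Replicates of a protein share its line, and the Sox17 libraries name another antibody than the rest, so residue, line and antibody cannot be told apart beyond the 4 proteins. At the level of proteins, 2 against 2 cannot give a p below 0.333. The labels leave unsaid if A and B were separate cultures, and the p-values then measure only the spread between these libraries, which may be technical.

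Oct4 and Sox libraries as classes did not differ detectably in relative share. The Oct4 libraries averaged 0.632 ± 0.193 (SD, n = 7) and the Sox libraries 0.678 ± 0.264 (SD, n = 8), a difference of -0.0461 (exact two-sided permutation p = 0.705, adjusted p = 0.705).

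Counts over single sites, drawn from the same overlaps as the relative shares, showed the same lean and are no separate support for it. A lysine Sox peak without any glutamate Sox peak was found at 1286 lost sites (19.7%), against 10.5% of kept peaks, rank-weighted. The reverse, a glutamate Sox peak without a lysine one, was found at 815 (12.5%) against 24.5%. All 4 lysine Sox libraries and no glutamate one had a peak at 129 lost sites (1.97% against 0.76%), and all 4 glutamate and no lysine library at 2 (0.03% against 0.23%). The 129 sites had a median F9 score of 187, above the 127 of all lost sites. For Oct4, 2170 lost sites (33.2% against 16.2%) had a peak in a lysine line and in no glutamate line, and 139 (2.13% against 2.89%) the reverse. Unweighted, the shares of kept peaks were 12.2% and 20.5% for the first 2 Sox counts and 2.01% and 0.23% for the next 2. For Oct4 they were 11.4% and 1.70%. The 1.97% of the 129 sites was thus close to the unweighted share, and the lean in that count rests on the rank weighting. The 2.13% of the 139 Oct4 sites lay above its unweighted share. The short Sox17 lists enter the lost and the kept shares alike.

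Agreement of replicates, counted from the same overlaps, gave a similar picture. Sox2 was present in both of its libraries at 982 lost sites (15.0%, and 15.0% of kept peaks, rank-weighted), and Sox17EK at 663 (10.1% against 11.04%). Sox2KE was present in both at 916 (14.0% against 26.2%) and Sox17 at 78 (1.19% against 4.03%). Sox2 and Oct4 were both found, in all 4 libraries of the Sox2 line, at 781 lost sites (11.9% against 12.02%). Peaks in all 4 libraries of the Sox2 line thus covered lost and kept F9 sites of like rank in nearly equal measure. Its 2 Oct4 libraries, without regard to Sox2, both had a peak at 23.3% of lost sites and 37.4% of kept peaks, rank-weighted. Peaks of tagged Sox2 in these Oct4 lists cannot be told apart from those of Oct4.

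The lean in these same overlaps was present at all levels of F9 signal. Among peaks ranked 1 to 10000, an average lysine Sox library met 51.9% of the 183 lost sites and 57.5% of kept peaks, and an average glutamate Sox library 17.6% and 45.1%. In the weakest stratum the lysine libraries met 14.9% of lost and 18.4% of kept sites, and the glutamate libraries 11.8% and 22.6%. Oct4 in lysine lines met 78.3% of the lost sites ranked 1 to 10000 and 91.7% of kept peaks, while Oct4 in glutamate lines met 40.3% and 80.4%.

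The ES shares also varied with distance from the F9+RA Oct4 peaks. Lysine Sox libraries met on average 18.7% of lost sites within 200 bp of an F9+RA Oct4 peak and 29.0% of those over 20000 bp away. For glutamate Sox libraries the order was the opposite, 19.0% and 11.9%. Isolated lost sites were thus those with the widest gap between the residues, and this was not tested. Oct4 of lysine lines met 47.1% of the nearest and 56.9% of the farthest class, and Oct4 of glutamate lines 25.95% and 24.9%.

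The rank of the ES peaks at lost sites varied with the residue as well. Sox2 peaks at lost sites had their median at 42.4% and 46.3% from the top of their lists, ahead of the 47.0% and 50.5% at kept peaks, rank-weighted. Those of Sox17EK stood at 41.8% and 32.8%, against 48.9% and 40.3%. In these 4 lists the peaks at lost sites were thus placed higher than those at kept sites of like F9 rank. Sox2KE peaks stood lower at lost than at kept sites (48.0% against 47.1%, and 46.0% against 33.7%). Sox17 replicate A differed little (51.8% against 52.1%), and replicate B stood lower (60.1% against 49.4%). In the Oct4 lists of ES cells the peaks at lost sites stood lower in all 7, by the least in Oct4 of the Sox17EK line replicate B (47.8% against 46.1%).

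Some lost sites had a peak in every ES library. All 15 lists held 19 of them (0.29%, against 1.01% of kept peaks, rank-weighted). The one with the highest F9 score, on chromosome 9 at 31767884 to 31768637, scored 402 in F9 cells, with Sox2 scores of 712 and 786, Sox2KE 876 and 1184, Sox17EK 697 and 297, and Sox17 124 and 71.0. Another lay on chromosome 3 at 156983940 to 156984590, 599741 bp from the nearest F9+RA Oct4 peak, with an F9 score of 373. Oct4 there reached 3100 in replicate A of the Sox2 and Sox17EK lines, 792 in the Sox17 line and 531 in Sox2KE replicate A. On chromosome 8 at 93354285 to 93355499, 443 bp from an F9+RA Oct4 peak, Sox17 had its highest scores among the 5 sites named (881 and 822), above Sox2 (377 and 398). None of the 5 had a Sox17 peak in F9+RA cells, where 6.10% of all lost sites had one.

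Lost sites had a lost site as nearest neighbour slightly more often than kept peaks did, which was not tested. The nearest of the examined F9 peaks was itself lost for 1217 lost sites (18.6%) and for 16.3% of kept peaks, beside the 16.4% of all peaks. Median distances to that neighbour were 6009 bp for lost and 6517 bp for kept peaks.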

How the data were processed

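Deposited files held 1 peak list per sample for 18 of 20 samples, while 2 mock libraries are not analysed here. Each deposited list gives chromosome, start and end (bp, another unit than a measurement), a name with the MACS prefix, and a score. Per the submitters' processing notes the build is mm9. The deposited score was read as 10 times −log10 p from its lower limit of 50, an inference, and used only to rank peaks within a list. The authors deposited a separate list of called peaks for each sample. Not given in the sources used here are the aligner, the caller's settings and its control. Read depth was unknown.

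Starts were taken to count from 0 and are printed counting from 1. Ties in score were broken by position. A match was an overlap of at least 1 bp. Kept peaks were weighted in 20 bins of rank to the lost sites. Intervals are exact (Clopper-Pearson, 95%). Means over libraries were compared by exact two-sided permutation, and 3 tests were adjusted together. The rule for named regions took the 10 strongest lost sites, the 5 strongest with Sox17 F9+RA, the 5 in the most ES lists and the 5 strongest in no other list. Overlap, weighting and test were tested on simulated data. No gene names or sequences are given, since the gene and promoter tables used here are of build GRCm38 and not mm9, so the planned motif and gene steps were not run. The members and lists were chosen with earlier results of these data known. Alternatives were other sizes of the F9 set, other matches, equal list lengths, unweighted kept peaks, single libraries left out and a replicate block. Scripts ran in Python 3.11.15 with SciPy 1.17.1, NumPy 2.4.6, matplotlib 3.10.9 and pandas 2.3.3.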

Additional observations from a re-analysis of the deposited data

Results flagged for a closer look

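Among the 4 Oct4 libraries of lysine lines, replicate B of the Sox2 line stood apart in lost sites per 1000 peaks of its list, at 47.7 against 58.5 to 60.3 in the other 3. Of 9 groups examined for such a gap, 1 showed it, and chance alone gives about 1 in 20. The 9 groups reuse the same libraries and are not independent.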

How the results depend on the processing

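The number of lost sites depended most on the set of F9 peaks and the match: it was 990 among the 20000 strongest F9 peaks, 20499 with all F9 peaks and 13684 with midpoints within 200 bp as the match. The Sox17 F9+RA share at lost sites was 3.84% and 5.46% in the first 2 of these, 26.8% by midpoints (kept peaks, rank-weighted, 31.7%), 5.004% without any F9+RA peak within 1000 bp and 7.09% with the F9+RA list cut to the length of the F9 list; it stayed below the kept share in each. The Oct4 difference in relative share passed 0.05 with the 20000 strongest F9 peaks (0.342, exact permutation p = 0.0286) and without any F9+RA peak within 1000 bp (0.337, exact permutation p = 0.0286), and ranged from 0.107 (midpoints) to 0.662 (equal list lengths). The Sox difference ranged from 0.0559 (midpoints) to 0.668 (20000 strongest) with lysine above glutamate throughout, and was 0.253 with kept peaks unweighted. With the letters A and B as a replicate block it was 0.458 with exact permutation p = 0.0556, the smallest that this pairing allows, and the Oct4 difference was 0.342 (exact permutation p = 0.0556). The labels do not say if the letters mark a shared batch. Over 21 pairs of groups the correlation of A minus B at lost sites ran from -0.128 to 0.0855, which cannot decide it. The difference of Oct4 and Sox libraries, never past 0.05, turned to 0.0488 with kept peaks unweighted, and ran from -0.0987 to 0.00136 with single libraries left out. With single libraries left out the Oct4 difference ran from 0.267 to 0.367 (exact permutation p from 0.0667 to 0.1, in each case the smallest that the remaining libraries allow) and the Sox difference from 0.411 to 0.495 (exact permutation p = 0.0286 each). The cause was not tested. Subtracting the moved background, an alternative chosen after seeing the data, gave 0.372 for Oct4 and 0.571 for Sox.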

Other observations

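Chromosomes differed in how many of their F9 Oct4 peaks were lost and in how often lost sites had an Oct4 peak in ES cells. Chromosome X lost 21.5% of its 1042 F9 peaks (exact 95% interval 19.0 to 24.1), where the ranks of those peaks alone would give 16.5%. On chromosome 12 the share was 12.5% of 2342 peaks (11.2 to 13.9), against 15.95% from ranks. Its F9+RA Oct4 list was much the longer, with 6865 against 3938 peaks. The F9+RA list was the longer on every chromosome, with 84196 against 64582 peaks in all. Lost sites of chromosome 12 had an Oct4 peak in at least 1 ES library in 49.5% of cases, against 87.0% on chromosome 1 and 89.6% on chromosome 14. Sox17 of F9+RA cells had a peak at 10.9% of the lost sites of chromosome 12, 3.10% on chromosome 1 and 3.30% on chromosome 14. For these ES Oct4 and Sox17 shares, those of kept peaks on the same chromosomes are not given. They therefore cannot be read as particular to lost sites. These chromosomes were picked after their values were seen, and no test was made.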
